A study of Mus musculus with 64 samples.

Results

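The 8 genes described here, Foxj1, Ccdc153, Tmem212, Dnaic1, Rsph1, Ttr, Folr1 and Kl, were chosen by name as genes of ependymal cilia and of the choroid plexus, out of 24421 gene symbols in a count table of 64 RNA-seq libraries. Each library came from several bilateral punches of the ventral tegmental area of 1 adult male mouse of the strain labelled 129S1/Svlm. The ventral tegmental area is the midbrain region known for its dopamine neurons. The label of each mouse was wildtype or Clock delta 19 (here mutant), whose shortened CLOCK protein acts against the normal one. For 14 days they received valproate (VPA), which is given in bipolar disorder and also blocks histone deacetylases, or ACY957, which blocks class I enzymes of that family, or 1 of the 2 vehicles. Punches were collected at zeitgeber time 6, some 24 h past the final dose. The labels gave 8 libraries each to VPA wildtype, VPA mutant, ACY957 wildtype and ACY957 mutant, 3 to VPA vehicle wildtype, 13 to VPA vehicle mutant, 5 to ACY957 vehicle wildtype and 11 to ACY957 vehicle mutant. Mice 1 to 24 were labelled wildtype and mice 25 to 64 mutant, so the genotype label and the order of mouse numbers cannot be told apart. All 8 genes passed the filter on low counts, which kept 15634 genes.

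Ependymal cells line the brain ventricles and carry tufts of motile cilia that move cerebrospinal fluid. A motile cilium is built on a ring of microtubule doublets: dynein arms make the doublets slide, and radial spokes pass control from the central pair to the arms. Foxj1 encodes the forkhead factor that, together with RFX factors, switches on genes of motile cilia. Dnaic1 encodes an intermediate chain of the outer dynein arm, and Rsph1 a protein of the radial spoke head. Ccdc153 encodes a coiled-coil protein and Tmem212 a membrane protein, and both are used as markers of ependymal cells. The choroid plexus is the epithelium that hangs into the ventricles and secretes cerebrospinal fluid. Ttr encodes transthyretin, its abundant carrier of thyroid hormone and retinol-binding protein. Folr1 encodes the folate receptor alpha, which brings folate into the fluid, and Kl encodes klotho, a coreceptor for FGF23.

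In the mm10 assembly, Foxj1 lies on chromosome 11 (116330704 to 116335399, minus strand), Ccdc153 on chromosome 9 (44240676 to 44247306, plus), Tmem212 on chromosome 3 (27866066 to 27896368, minus) and Dnaic1 on chromosome 4 (41569775 to 41638158, plus). Rsph1 lies on chromosome 17 (31255019 to 31277383, minus), Folr1 on chromosome 7 (101858331 to 101870788, minus) and Kl on chromosome 5 (150952607 to 150993817, plus). All 8 genes, Ttr included, are protein-coding in GENCODE M21. Dnaic1 shares 15 exonic bases with Enho, which is read from the opposite strand. The other 7 share no exonic base with another annotated gene.

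Promoters of Ccdc153, Tmem212 and Dnaic1 are shown because the first 2 of these genes varied together across libraries and Dnaic1 did so less. They are the 250 bases upstream of the RefSeq start in GRCm38.p6, written 5′ to 3′ on the strand of the gene: chr9:44240427-44240676 (plus) for Ccdc153, chr3:27896369-27896618 (minus) for Tmem212 and chr4:41569544-41569793 (plus) for Dnaic1. Capitals mark matches to 2 loose forms of the RFX factors' X-box.
Ccdc153: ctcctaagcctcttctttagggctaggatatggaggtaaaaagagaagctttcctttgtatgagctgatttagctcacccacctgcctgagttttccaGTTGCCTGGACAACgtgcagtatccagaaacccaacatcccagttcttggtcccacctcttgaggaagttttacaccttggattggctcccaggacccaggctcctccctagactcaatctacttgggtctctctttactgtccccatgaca
Tmem212: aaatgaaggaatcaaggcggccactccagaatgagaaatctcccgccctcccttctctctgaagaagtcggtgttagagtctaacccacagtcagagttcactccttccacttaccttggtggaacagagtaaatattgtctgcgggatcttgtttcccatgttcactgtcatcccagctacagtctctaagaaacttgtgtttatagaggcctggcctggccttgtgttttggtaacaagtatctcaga
Dnaic1: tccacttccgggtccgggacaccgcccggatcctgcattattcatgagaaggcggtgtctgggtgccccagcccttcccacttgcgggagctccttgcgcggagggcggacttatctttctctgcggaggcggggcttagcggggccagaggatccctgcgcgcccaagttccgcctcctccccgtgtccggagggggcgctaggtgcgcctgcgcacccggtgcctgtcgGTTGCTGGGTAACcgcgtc
Promoters of 4 of the 8 genes (these 3 and Kl) were matched by symbol. On both strands, the X-box half-site GTTGCCA, the full X-box (GTTNCC, any 3 bases, then GNAAC) and the forkhead core TGTTTAC were found in 0 of these 4, against 3.66%, 0.667% and 3.17% of 32851 promoter windows of the same length. The loose forms, which are GTTGC and AAC with any 6 or any 5 bases between them, were written after the sequences had been read. Ccdc153 holds the first as GTTGCCTGGACAAC, beginning 152 bases before the start, and Dnaic1 holds the second as GTTGCTGGGTAAC, beginning 19 bases before it. These forms occurred in 0.828% and 0.883% of all windows. In GENCODE M21 the Dnaic1 gene begins at 41569775, inside its window, so by that annotation its match lies within the gene. A match of letters is a description of the sequence and not a measured binding site.

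The deepest library held 37.5 M counts, the shallowest 20.1 M and the median 25.8 M, so that 3 counts amounted to 0.0814 to 0.148 CPM (counts scaled by the library total). Correlations between libraries lay between 0.956 and 0.993. Th, which encodes tyrosine hydroxylase of the dopamine neurons, was under 8 log2 CPM in 4 libraries: VPA mutant replicates 2 and 8 (44.2 and 26.3 CPM), VPA wildtype replicate 3 (98.0 CPM) and VPA vehicle mutant replicate 3 (202 CPM). The count of Clock itself does not read the delta 19 change, and its group means ran from 66.1 to 74.9 CPM. A score of 8 clock output genes fell into a lower and an upper set, and 13 libraries lay where the opposite label predominated: 1 of 24 labelled wildtype in the lower set and 12 of 40 labelled mutant in the upper set. Groups are therefore named by their labels throughout, and no library was moved.

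Per length of exon, Dnaic1, Ttr and Foxj1 were the highest of the 8 genes. Their median levels over the 64 libraries were 3.09, 2.90 and 2.40 RPKM (CPM per kilobase of exon). Rsph1 followed at 1.00 RPKM, and Tmem212 (0.385 RPKM), Kl (0.285 RPKM), Folr1 (0.144 RPKM) and Ccdc153 (0.124 RPKM) were lower. Quartiles showed how differently the top genes were spread: Dnaic1 had quartiles of 2.55 and 3.74 RPKM, and Ttr of 0.955 and 11.99 RPKM. The quartile ranges of Dnaic1, Ttr and Foxj1 overlapped, so their order at the top is not separated by their spread. Ccdc153 was at 3 counts or fewer in 22 of 64 libraries, Tmem212 in 17, Folr1 in 10 and Ttr in 1, while Foxj1, Dnaic1, Rsph1 and Kl were above 3 counts in every library.

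A few punches held a large share of some of these genes. Over 64 libraries, the 4 highest libraries held 57.6% of the summed CPM of Tmem212, 55.4% of Ccdc153 and 53.7% of Ttr. They held 34.9% of Folr1, 27.4% of Rsph1, 23.2% of Kl, 18.1% of Foxj1 and 8.64% of Dnaic1. The biological coefficient of variation within groups was 1.43 for Ccdc153, 1.40 for Tmem212 and 1.33 for Ttr, against a median of 0.125 over all genes tested. It was 0.927 for Folr1, 0.539 for Rsph1, 0.515 for Kl, 0.368 for Foxj1 and 0.170 for Dnaic1. At least 91.9% of tested genes varied less than each of the first 7 of these, and 68.5% varied less than Dnaic1. The share of variance in log2 CPM that lay between the 8 groups was 48.6% for Dnaic1 and 22.4% for Kl, and between 9.22% and 16.5% for the other 6. The median over all genes was 16.01%. Libraries are whole punches, so more cells of a type and more RNA per cell cannot be told apart.

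**Figure D1:**
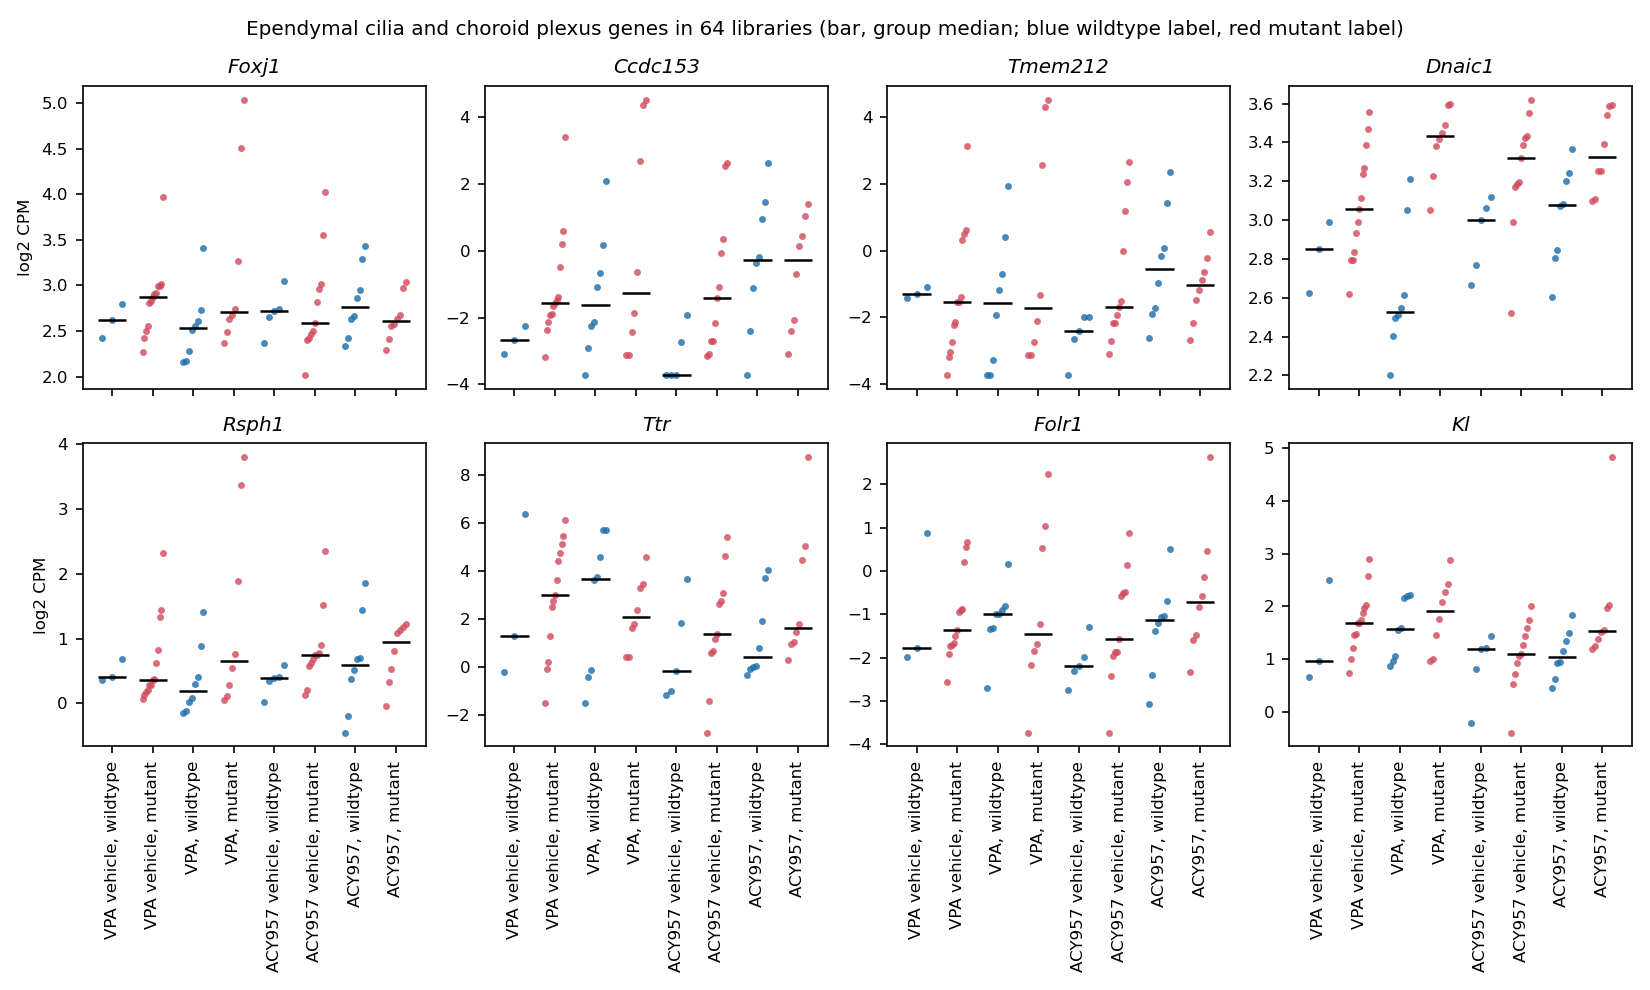
Level of each gene (y axis, log2 CPM with a prior count of 2) in each of the 64 libraries, by group (x axis); points are single libraries, blue for the wildtype label and red for the mutant label, and bars are group medians. Dnaic1 is the gene whose VPA groups are nearly separate, while for Ccdc153, Tmem212, Rsph1 and Ttr single libraries stand far above their groups.

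The cilia genes peaked in 2 libraries of the VPA mutant group. Tmem212 stood at 22.8 CPM in replicate 8 and 19.7 CPM in replicate 2, against a median of 0.276 CPM over all 64 libraries. Ccdc153 stood at 22.9 and 20.4 CPM in the same libraries, against a median of 0.252 CPM. Rsph1 reached 13.8 and 10.2 CPM (median 1.37 CPM), and Foxj1 reached 22.7 and 32.7 CPM (median 6.29 CPM). Dnaic1, at 10.8 and 11.2 CPM, was close to its median of 8.59 CPM there. These are 2 of the 4 libraries low in Th. In clock output, replicate 8 lay in the lower set and replicate 2 in the upper set, on the other side of its label. Both libraries were also high in Pmch, the hypothalamic peptide gene for melanin-concentrating hormone, at 542 and 349 CPM.

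Libraries with the other low Th values, and some with ordinary Th, were also high. VPA vehicle mutant replicate 3 had 10.5 CPM of Ccdc153, 8.68 CPM of Tmem212 and 15.6 CPM of Foxj1, with Pmch at 12.8 CPM. It lay in the upper set of clock output, on the other side of its label. VPA wildtype replicate 3 had 4.18 CPM of Ccdc153 and 3.75 CPM of Tmem212. ACY957 vehicle mutant replicate 3, with Th at 1336 CPM, still had 6.13 CPM of Ccdc153, 6.25 CPM of Tmem212 and 16.2 CPM of Foxj1. High cilia genes were thus not confined to punches low in Th.

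The choroid plexus genes peaked in another library. In ACY957 mutant replicate 3, Ttr (chromosome 18, 20665280 to 20674321, plus strand) stood at 430 CPM, which was 36.3% of all the Ttr summed over 64 libraries, against a median of 3.44 CPM. Kl was at 28.5 CPM in that library (median 2.66 CPM) and Folr1 at 6.11 CPM (median 0.331 CPM). Its cilia genes were ordinary, with 0.565 CPM of Tmem212 and 6.14 CPM of Foxj1, and Th was at 1331 CPM. In clock output this library lay in the upper set, on the other side of its mutant label. VPA mutant replicate 2, high in the cilia genes, had 1.26 CPM of Ttr.

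Across libraries, Foxj1, Ccdc153, Tmem212 and Rsph1 varied together. Their 6 pairs had Pearson r between 0.726 and 0.912 in log2 CPM (n = 64, permutation test with 100000 resamples, adjusted p = 6.13e-05 for each pair). Before adjustment over 92 relations, the permutation p of each pair was 1e-05, the smallest that these permutations can give. The closest pair was Ccdc153 and Tmem212, with r = 0.912 and Spearman's rho = 0.823 (adjusted permutation p = 0.000131 for rho). The loosest by rank was Foxj1 and Rsph1, with rho = 0.43 (adjusted permutation p = 0.00403) beside r = 0.80, and r of 0.65 without the 2 farthest libraries. For Ccdc153 and Tmem212, r was 0.886 without the 2 libraries farthest from the median, 0.921 after group means were subtracted and 0.864 without the 4 libraries low in Th. Where Ccdc153 and Tmem212 each had at least 20 counts, in 17 libraries, the ratio of their counts stayed between 0.537 and 1.88 with a median of 1.03. Dnaic1 followed these 4 genes more loosely, with r between 0.349 and 0.42 (n = 64, adjusted permutation p from 0.00276 to 0.0134). Without the libraries low in Th, its r with Rsph1 was 0.375 (adjusted permutation p = 0.0159, n = 60) and its adjusted p with the other 3 was between 0.0981 and 0.121.

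Ttr showed no relation to the cilia genes that passed the test. Its r with Foxj1, Ccdc153, Tmem212, Dnaic1 and Rsph1 lay between -0.0771 and 0.0731, and 0 of these 5 pairs passed. Ttr went with Kl (r = 0.60, rho = 0.552, n = 64, adjusted permutation p = 6.13e-05), and r was 0.495 without the 2 libraries farthest from the median. With Folr1, the r of Ttr was 0.378 (adjusted permutation p = 0.00796, n = 64) with rho = 0.276 (adjusted permutation p = 0.0744), and r was 0.243 without the 2 farthest libraries. Ttr and Kl nevertheless moved in unequal steps: in 56 libraries with at least 20 counts of each, the ratio of Ttr to Kl counts ran from 0.146 to 18.4.

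Folr1 lay between the 2 sets. Its r was 0.588 with Kl, and it was 0.484 with Foxj1, 0.702 with Ccdc153, 0.667 with Tmem212 and 0.728 with Rsph1 (n = 64, adjusted permutation p from 6.13e-05 to 0.00046). Kl had r between 0.066 and 0.274 with those 4 cilia genes, and 0 of 4 pairs passed by r. By rank, Kl went with Ccdc153 (rho = 0.363, adjusted permutation p = 0.0171), Tmem212 (0.329, 0.0312) and Rsph1 (0.305, 0.0453). Its rho with Foxj1 was -9.16e-05 and did not pass. Without the 2 libraries farthest from the median of Kl, its r was 0.377 with Ccdc153, 0.365 with Tmem212, 0.358 with Rsph1 and 0.185 with Foxj1. Over all 28 pairs of the 8 genes, 17 were positive with an adjusted p under 0.05, and 13 were so without the 4 libraries low in Th. Without those 4 libraries, r of Foxj1 and Folr1 was 0.254 (adjusted permutation p = 0.137, n = 60).

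**Figure D2:**
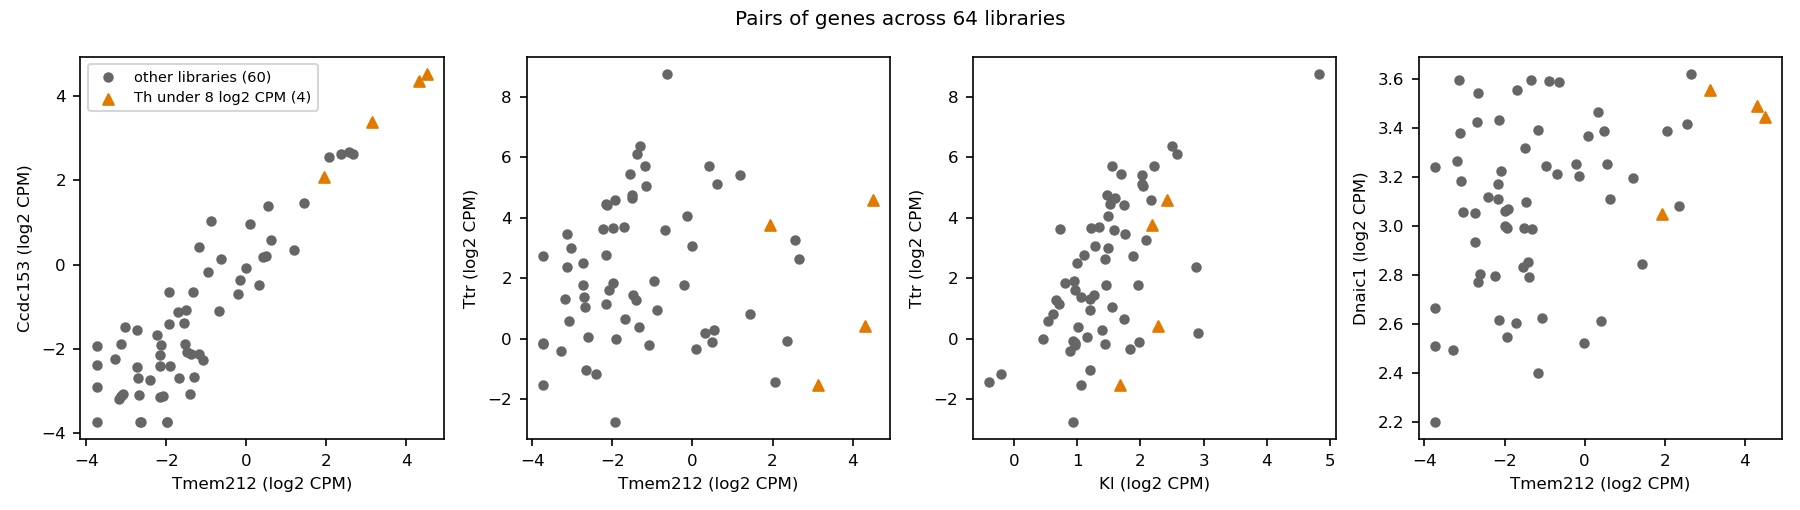
Levels of 4 pairs of genes (both axes in log2 CPM) in the 64 libraries; orange triangles are the 4 libraries with Th under 8 log2 CPM, and grey points the other 60. Ccdc153 and Tmem212 fall along a line (r = 0.912), Ttr shows no slope against Tmem212 (r = 0.0731), Ttr rises with Kl (r = 0.60), and Dnaic1 rises weakly with Tmem212 (r = 0.356).

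Of the 5 cilia genes, 4 were high where the dopamine neuron genes were low. Against the mean log2 CPM of 9 dopamine neuron genes, r was -0.746 for Rsph1, -0.693 for Foxj1, -0.683 for Tmem212 and -0.668 for Ccdc153 (n = 64, adjusted permutation p = 6.13e-05 for each). Rank correlations were weaker, with rho between -0.432 and -0.356 for these 4 genes (adjusted permutation p from 0.00368 to 0.0201), and r without the 2 libraries farthest from the median lay between -0.541 and -0.405. Without the 4 libraries low in Th, r was -0.431 for Ccdc153 (adjusted permutation p = 0.00467, n = 60), -0.424 for Tmem212 (0.00506), -0.387 for Rsph1 (0.0148) and -0.216 for Foxj1 (0.222). For Dnaic1, r with the dopamine neuron genes was -0.257 (adjusted permutation p = 0.0912, n = 64). Of the choroid plexus genes, Folr1 had r = -0.449 (0.00202), and -0.125 (0.503) without the 4 libraries, Kl had -0.259 (0.0969) and Ttr had -0.0458 (0.812). Against the 6 hypothalamic neuron genes that passed the filter on low counts, of 8 listed, r was 0.538 for Rsph1, 0.506 for Ccdc153, 0.466 for Tmem212, 0.457 for Foxj1 and 0.415 for Dnaic1 (n = 64, adjusted permutation p from 0.000287 to 0.00295). For these 5 genes rho lay between 0.234 and 0.438, and its adjusted permutation p was 0.0358 for Ccdc153, 0.00293 for Dnaic1 and above 0.05 for the other 3. Without the libraries low in Th, Dnaic1 was at 0.367 (adjusted permutation p = 0.0159, n = 60), and the other 4 were between 0.122 and 0.317 with adjusted p between 0.0659 and 0.503. The relation was not particular to cilia genes. Folr1 had r = 0.425 (adjusted permutation p = 0.00276, n = 64) and rho = 0.336 (0.027). Kl had r = 0.313 (0.0439) and rho = 0.322 (0.0332), while Ttr had r = 0.0966 (0.604). Without the libraries low in Th, r was 0.259 for Folr1 (0.132, n = 60) and 0.236 for Kl (0.159). What sets the levels of these genes in a punch was not tested.

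**Figure D3:**
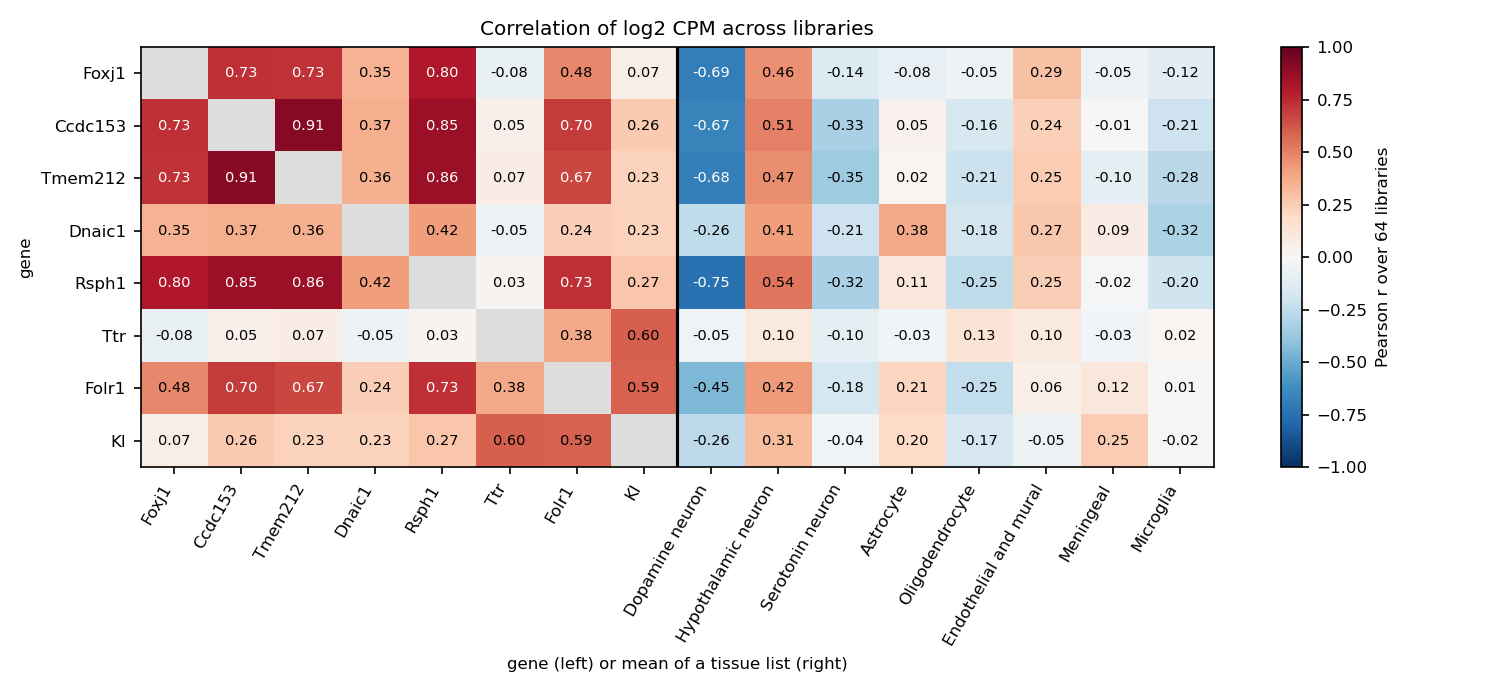
Pearson r of log2 CPM over 64 libraries between each gene (rows) and the other 7 genes or the mean of 8 tissue marker lists (columns); red is positive and blue negative. The block of Foxj1, Ccdc153, Tmem212 and Rsph1 holds values of 0.726 to 0.912, and the row of Ttr is near 0 except for Kl (0.60) and Folr1 (0.378).

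The genes most like each of the 8 were taken by Pearson r over 64 libraries after group means were subtracted, as a description. The 5 most like Tmem212 were Tctex1d4 (r = 0.92), Ccdc153 (0.92), 1700024G13Rik (0.92), Ak7 (0.91) and Zfp474 (0.91). Ccdc153 had Tmem212, Sntn, Ak7, Fam216b and Zfp474, with r of 0.91 to 0.92. Rsph1 had Ak7 (0.91), Slc14a2, Stoml3, Ccdc153 and Sntn, and Foxj1 had Spata18 (0.85), Cfap126, Saxo2, Zfp474 and Ttc29. For Ttr they were Kcnj13 (0.63), Kl, Wfdc2, Kcne2 and Sostdc1, of which 4 are on the choroid plexus list and the remaining gene is Kl. Kl had Kcnj13 (0.69), Camk2a, Nov, Ptk2b and Serinc2, of which only Kcnj13 is on the choroid plexus list. Folr1 had Lbp (0.84), Calml4, Rsph1, 1500015O10Rik and Col8a2, which mix choroid plexus, ependymal and cilia genes. Among the genes most like Dnaic1 were Apoe (0.66), Ntsr2 (0.59), Rps29 and Rpl13, none of them on a cilia list.

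Lists of other genes, grouped by role, were set beside Tmem212 and Ttr in the same way. Of all 15633 other genes tested, 2.89% had r above 0.5 with Tmem212. Among outer and inner dynein arm genes the count was 13 of 19, among radial spoke, central pair and nexin link genes 13 of 19, and among other cilia and flagella genes 29 of 44. Dynein arm assembly genes gave 4 of 8, regulators of multiciliation 3 of 9, ependymal and tanycyte genes 4 of 14 and choroid plexus genes 3 of 53. Dynlrb2 and Dnali1, dynein light chains, had r of 0.84 and 0.82, Hydin, of the central pair, had 0.73, and Trp73, a regulator of multiciliated cells, had 0.86. Of the 99 genes of the 5 cilia lists, 77 had their highest value in VPA mutant replicate 2 (40) or replicate 8 (37). How many of all genes tested were highest in these libraries was not counted, so this number has no background. With Ttr, 4 of 15633 genes (0.0256%) had r above 0.5, and 3 of these 4 were on the choroid plexus list. These were Kcnj13 and Kcne2, potassium channel genes of that epithelium, and Wfdc2. Of 53 choroid plexus genes, 16 had their highest value in ACY957 mutant replicate 3, among them Kcnj13 (6.37 CPM, median 0.13 CPM), Aqp1 (5.13 CPM, median 0.90 CPM) and Sostdc1 (10.7 CPM, median 1.85 CPM). The share of all genes highest in that library was not counted either.

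Dnaic1 followed the cilia lists more loosely than Tmem212 did. Its median r with the genes of the 5 cilia lists was 0.17 to 0.25, against -0.01 over all genes tested, while that of Tmem212 was 0.40 to 0.65, against 0.0005 over all genes. Of the 99 genes on those lists 0 had r above 0.5 with Dnaic1, which is near the share of 0.493% over all other genes. The difference between Dnaic1 and Tmem212 in these values was not tested. The highest r of Dnaic1 with any gene was 0.66, for Apoe. Against the mean of 6 astrocyte genes, r was 0.382 over 64 libraries (rho = 0.369, adjusted permutation p = 0.00615) and 0.231 after group means were subtracted (adjusted permutation p = 0.169). Enho, its neighbour on the other strand, was at 161 CPM on average, and its r with Dnaic1 was 0.518 over 64 libraries and 0.383 within groups. The setting of strand in the authors' counting is not given in the sources used here, and its part in the count of Dnaic1 was not tested.

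**Figure D4:**
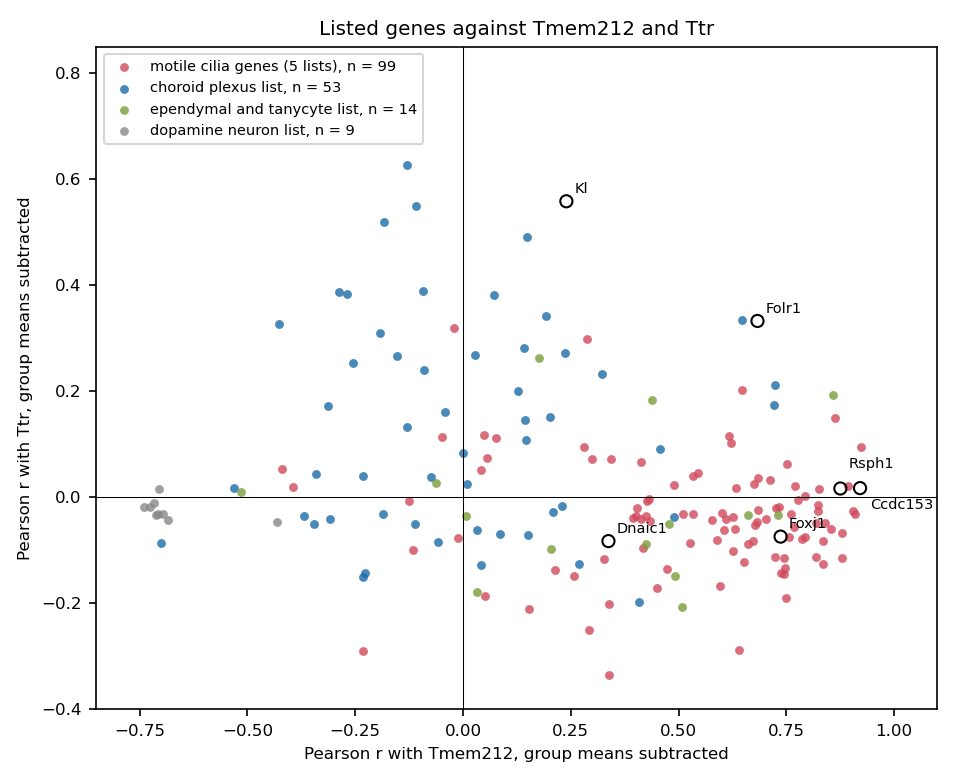
Pearson r of each listed gene with Tmem212 (x axis) and with Ttr (y axis) over 64 libraries after group means were subtracted; colours are gene lists and open circles the other 6 of the 8 genes. Most cilia genes lie to the right near 0 on the y axis, Kl lies high, Folr1 lies to the right and above 0, and Dnaic1 lies left of most cilia genes.

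Under VPA, 2 of the 8 genes were higher in libraries labelled mutant than in libraries labelled wildtype, namely Dnaic1 and Rsph1. In this comparison 1% of 15634 genes passed in either direction with 0.71% higher and 0.294% lower (edgeR quasi-likelihood test, Benjamini-Hochberg adjusted p under 0.05). Dnaic1 ranged from 8.22 to 12.04 CPM with a median of 10.7 CPM in the 8 libraries labelled mutant, and from 4.52 to 9.19 CPM with a median of 5.69 CPM in the 8 labelled wildtype. The groups overlapped little, since 7 of 8 mutant-labelled libraries lay above the highest wildtype-labelled value. Its mean was 10.6 ± 1.30 CPM (SD, n = 8) against 6.26 ± 1.59 CPM (SD, n = 8). On the log2 scale the difference was 0.76 (SE 0.13, adjusted p = 0.000632). Dnaic1 passed in 16 of 16 fits that left out 1 library of these groups, with log2 fold changes of 0.70 to 0.85. Without the libraries low in Th the log2 fold change was 0.80 (adjusted p = 0.0011).

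Whether Rsph1 passed depended on single libraries. It ranged from 0.956 to 13.8 CPM with a median of 1.496 CPM in the 8 VPA libraries labelled mutant, and from 0.827 to 2.57 CPM with a median of 1.07 CPM in the 8 labelled wildtype. Replicates 2, 7 and 8 of the mutant-labelled group, at 10.2, 3.64 and 13.8 CPM, lay above the highest wildtype-labelled library, and the other 5 lay within its range. The mean was 4.22 ± 4.99 CPM (SD, n = 8) against 1.29 ± 0.60 CPM (SD, n = 8), which gave 1.72 on the log2 scale (SE 0.41, adjusted p = 0.0235). Without VPA mutant replicate 8 it was 1.14 (adjusted p = 0.201), without replicate 2 it was 1.39 (0.0966), and without VPA wildtype replicates 1, 4 or 5 it was 1.64 (0.0614), 1.66 (0.0588) and 1.64 (0.069). Without the 4 libraries low in Th it was 0.56 (adjusted p = 0.471), and with the mean of the dopamine neuron genes as a covariate it was 0.34 (adjusted p = 0.77). In the same comparison 0 of 9 dopamine neuron genes were higher, with a median log2 fold change of -0.64, and 4 of 6 hypothalamic neuron genes were higher and 2 lower. Of these 6, Pmch and Hcrt, which encode peptides, rose by 4.10 and 4.14 and the other 4 did not pass.

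The other 6 genes did not pass under VPA. Foxj1 was at 5.10 to 32.7 CPM (median 6.47 CPM) in libraries labelled mutant and at 4.41 to 10.5 CPM (median 5.74 CPM) in those labelled wildtype, and differed by 0.98 on the log2 scale (SE 0.27, adjusted p = 0.0553). Tmem212 ran from 0.0392 to 22.8 CPM (median 0.241 CPM) against 0 to 3.75 CPM (median 0.277 CPM), so that its medians went the other way from the fitted difference of 3.01 on the log2 scale (SE 0.98, adjusted p = 0.107). Ccdc153, with medians of 0.381 and 0.272 CPM, had a log2 fold change of 2.96 (adjusted p = 0.123). Ttr was lower, with medians of 4.21 and 12.8 CPM and a fitted log2 difference of -1.41 (SE 1.02, adjusted p = 0.536). Folr1 and Kl had log2 fold changes of 1.31 and 0.34 (adjusted p of 0.332 and 0.73). Without VPA wildtype replicate 3 the number that passed was 5, with Foxj1 (1.14, adjusted p = 0.0157), Ccdc153 (4.29, 0.0251) and Tmem212 (4.27, 0.0228) added. Foxj1 passed in 6 of 16 fits that left out 1 library, the other 5 being those without VPA mutant replicate 1, 3, 4, 5 or 6 (1.06 to 1.09).

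Other cilia genes were mostly higher in the same comparison, with few that passed. Dynein arm genes were higher in 17 of 19 (median log2 fold change 0.99, 0 passed), other cilia and flagella genes in 41 of 44 (median 0.79, 0 passed) and radial spoke, central pair and nexin link genes in 17 of 19 (median 0.45). Over all genes 51.2% were higher, with a median of 0.0033. In the last list Lrrc48, of the nexin link, rose by 0.66 (SE 0.17, adjusted p = 0.039) and Cfap221, of the central pair, by 3.69 (SE 0.96, adjusted p = 0.04). The same libraries that were high in Tmem212 and low in Th enter these values, and their part in the lists was not tested. Of 53 choroid plexus genes 29 were higher (median 0.01). Rdh5, a retinol dehydrogenase, rose by 0.65 and Lbp, which binds lipopolysaccharide, by 2.35, and Stra6, the receptor for retinol-binding protein, fell by 1.18 on the log2 scale. Of 14 ependymal and tanycyte genes 8 were higher and 6 lower (median 0.06). Only Rarres2, the chemerin gene, passed among them, and it rose by 0.54.

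Averaged over the 4 treatments, 1 of the 8 genes, Dnaic1, differed between the genotype labels. Here 1.61% of genes passed in either direction, with 0.768% higher and 0.844% lower. Its log2 fold change was 0.43 (SE 0.07, adjusted p = 0.000114, n = 40 labelled mutant and 24 labelled wildtype). The log2 fold change of Dnaic1 was also positive under each of the other treatments. Under ACY957 its means were 10.2 ± 1.46 and 8.19 ± 1.43 CPM (SD, n = 8 each), or 0.32 on the log2 scale (SE 0.13, adjusted p = 0.937). In VPA vehicle libraries labelled wildtype its values were 7.15, 6.09 and 7.86 CPM, and the 13 labelled mutant ran from 6.06 to 11.7 CPM with a median of 8.24 CPM (log2 fold change 0.28, adjusted p = 0.913). In ACY957 vehicle libraries labelled wildtype its values were 8.27, 6.27, 7.93, 8.61 and 6.74 CPM, and 9 of 11 labelled mutant lay above the highest of these (log2 fold change 0.35, adjusted p = 0.999). Taken one treatment at a time, Dnaic1 passed under VPA and did not pass in these 3. The difference between the VPA effects in the 2 labels was 0.48 (SE 0.21, unadjusted p = 0.0281, adjusted p = 1, edgeR).

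The averaged difference of Dnaic1 passed in 64 of 64 fits that left out 1 library, with log2 fold changes of 0.40 to 0.45. Without the 13 libraries on the other side of their label in clock output it was 0.44 and passed. Enho also passed in this comparison, at 0.17 on the log2 scale (SE 0.04, adjusted p = 0.0227). For the remaining 7 genes the averaged log2 fold changes were positive and did not pass: 2.61 for Ccdc153 (adjusted p = 0.0757), 1.70 for Tmem212, 0.97 for Folr1, 0.74 for Ttr, 0.69 for Rsph1, 0.58 for Kl and 0.31 for Foxj1. Of the ACY957 vehicle libraries labelled wildtype, 3 of 5 had 0 reads of Ccdc153, and its fold changes against that group rest on counts of 0 to 5 reads. The 3 VPA vehicle libraries labelled wildtype had 1 to 3 reads of Ccdc153, so its averaged difference rests in part on both of these low groups. Of 53 choroid plexus genes, only Lbp, Igf2 and Stra6 passed. Lbp rose by 1.16 and Igf2, a growth factor gene, by 0.50, and Stra6 fell by 0.65 on the log2 scale. The 5 cilia lists had 0 genes that passed. Of other cell types, 4 of 6 microglia genes fell (Cx3cr1, P2ry12, Csf1r and Tmem119, by 0.17 to 0.30 on the log2 scale). Of 6 endothelial and mural genes, only Cldn5 of endothelial cells (up by 0.34) and Rgs5 of mural cells (down by 0.22) passed. Among the 6 hypothalamic neuron genes tested, only Pmch passed, and it rose by 1.23. The part of these cell types in the difference of Dnaic1 was not tested.

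**Figure D5:**
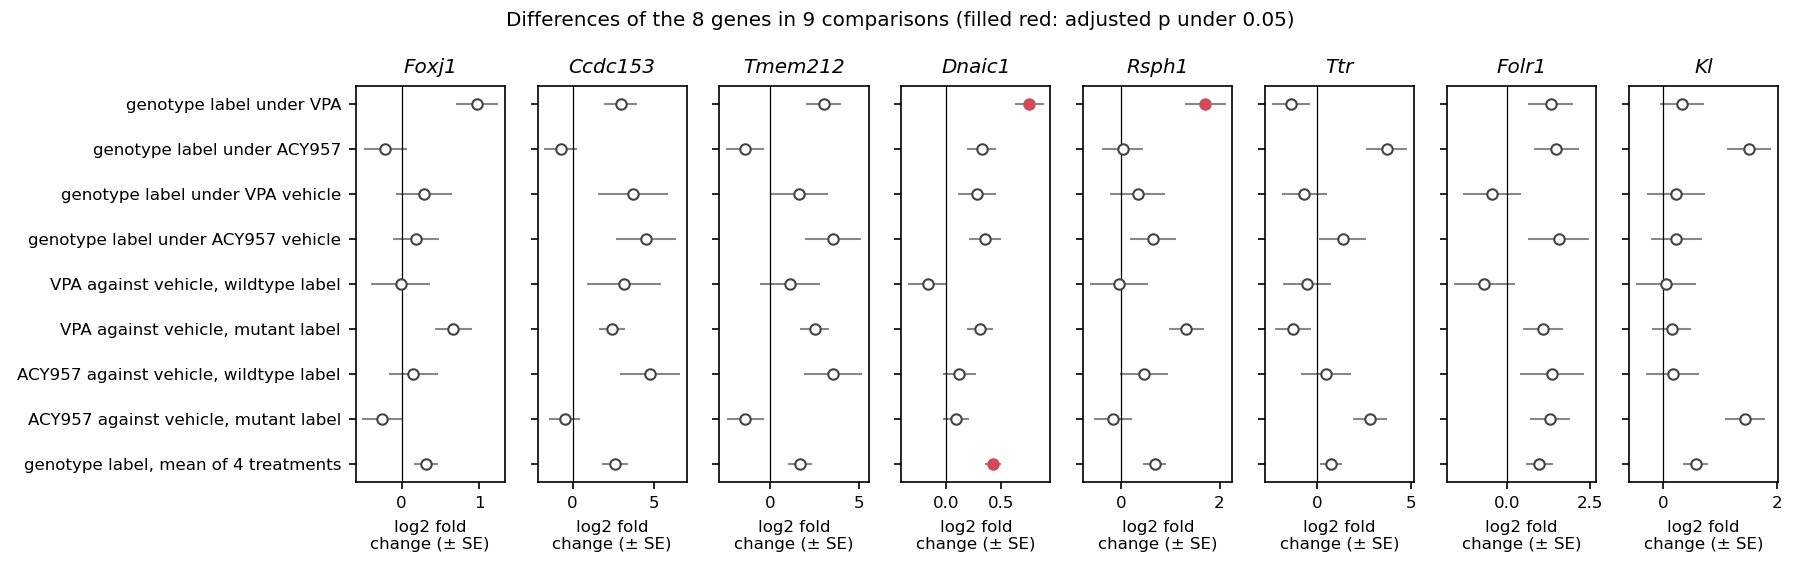
Log2 fold change of each gene (x axis, point with SE bar) in 9 comparisons (y axis); red points have an adjusted p under 0.05 and open points do not. Dnaic1 is past the threshold under VPA (0.76) and in the mean of 4 treatments (0.43), and Rsph1 under VPA (1.72).

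For the drugs against their vehicles, 0 of the 8 genes passed the edgeR test in any of the 4 comparisons within a genotype label. With VPA against its vehicle, 0 of 8 passed in libraries labelled mutant (0.0576% of all genes passed, 0.0512% higher) and 0 of 8 in libraries labelled wildtype (0.0256%). At an unadjusted p under 0.05 the counts were 5 and 0 of 8, where 12.6% and 4.27% of all genes were so. The 5 in libraries labelled mutant were Rsph1 (log2 fold change 1.33, adjusted p = 0.0863), Foxj1 (0.67, 0.212), Tmem212 (2.52, 0.163), Ccdc153 (2.42, 0.197) and Dnaic1 (0.31, 0.239). Without VPA vehicle mutant replicate 3, which is low in Th, 3 passed: Rsph1 (1.58, adjusted p = 0.0101), Ccdc153 (3.97, 0.00979) and Tmem212 (3.8, 0.011). Without all 4 libraries low in Th, 0 passed, Rsph1 was at 0.20 and Foxj1 at -0.048. Rsph1 alone passed when VPA mutant replicate 1, 3, 4, 5 or 6 was left out, with log2 fold changes of 1.45 to 1.48.

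With ACY957 against its vehicle, 0 of 8 passed in libraries labelled mutant (0.0064% of all genes passed) and 0 of 8 in libraries labelled wildtype (0.0064%). Unadjusted p was under 0.05 for 3 and 2 of 8, and for 6.31% and 3.32% of all genes. In libraries labelled mutant, the log2 difference of Kl was 1.45 (SE 0.35, adjusted p = 0.217), Ttr of 2.80 (SE 0.92, adjusted p = 0.46) and Folr1 of 1.29 (SE 0.61, adjusted p = 0.744). The 8 ACY957 libraries labelled mutant had Ttr from 1.15 to 430 CPM with a median of 2.99 CPM, and the 11 of the vehicle from 0.0746 to 43.2 CPM with a median of 2.56 CPM. Without ACY957 mutant replicate 3, the log2 fold changes were 0.38 for Kl, 0.11 for Ttr and 0.13 for Folr1. In libraries labelled wildtype, the 2 genes were Ccdc153 (4.76, adjusted p = 0.999) and Tmem212 (3.54, adjusted p = 0.999), against vehicle libraries with 0 to 5 reads of each.

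Between the genotype labels under ACY957, the values of Ttr, Kl and Folr1 again moved with that library. Of the 8 genes 0 passed (0% of all genes passed), and 4 had an unadjusted p under 0.05 (4.84% of all genes): Ttr (log2 fold change 3.71, SE 1.1, adjusted p = 0.53), Kl (1.51, 0.265), Folr1 (1.48, 0.997) and Dnaic1. Mean Ttr was 61.99 ± 149 CPM (SD, n = 8) in libraries labelled mutant and 4.77 ± 6.26 CPM (SD, n = 8) in those labelled wildtype, while the medians were 2.99 and 1.32 CPM. Without ACY957 mutant replicate 3 the log2 fold change was 1.01 for Ttr, 0.45 for Kl and 0.32 for Folr1. Between the labels in vehicle libraries, 0 of 8 passed for the VPA vehicle (0.0064% of all genes) and 0 of 8 for the ACY957 vehicle (0.0128%), with 0 and 3 at an unadjusted p under 0.05 (5.15% and 3.61% of all genes). The tests of whether a drug effect differed between the labels gave 0 of 8 for VPA (0.0064% of all genes) and 0 of 8 for ACY957 (0%), with 2 and 3 unadjusted (2.84% and 1.84% of all genes). Averaged over both labels, 0 of 8 passed for VPA (0.0704%, of which 0.0448% lower) and 0 of 8 for ACY957 (0.0256%, of which 0.0192% higher), with 1 and 2 unadjusted (10.4% and 8.19% of all genes). DESeq2 and limma voom also gave 0 of 8 in each of the 11 comparisons in which edgeR gave 0. The comparisons of a drug with its vehicle and of the labels under that drug share libraries, so their values for a gene are not independent.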

How the data were processed

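The authors deposited raw read counts per gene symbol, with no normalization. Per the labels' protocols, poly(A) RNA was prepared with a stranded kit. Alignment to mm10 used TopHat2 (2.0.9) and counting HTSeq (0.6.1) according to the series' design text, while the submitters' processing notes list HISAT2 and Trimmomatic; the strand setting is not given in the sources used here. All 64 libraries entered a single edgeR (4.0.16, R 4.3.3) quasi-likelihood fit with 1 coefficient a group, after TMM scaling and filterByExpr, with Benjamini-Hochberg adjustment over 15634 genes. CPM are scaled by TMM, and log2 CPM use a prior count of 2. SE is the log2 fold change over the root of its F statistic. RPKM use exon lengths of GENCODE M21, which matched 23384 of 24421 symbols. Correlations used 100000 permutations, adjusted over 92 relations; those without the 4 libraries low in Th were chosen after the data were seen. No libraries had identical counts. Alternatives were DESeq2 1.42.0, limma voom 3.58.1 and the settings in the closing section. The design text states 8 mice in each group, the labels do not, and groups followed the labels. Named genes were the 8 genes, listed genes past 0.05 (up to 12 a list), and the 5 genes most like each (1 of them is not reported here); genes named for their r or highest library were chosen after their values were seen. The 8 genes and the lists were chosen with earlier results of these data known. The edgeR test was tried first on simulated counts, for 2 comparisons. The simulated spread was set from the mean count, so that trial does not cover genes as variable as Ccdc153, Tmem212 and Ttr.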

Additional observations from a re-analysis of the deposited data

Results flagged for a closer look

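In 5 groups of 5 to 8 libraries, 2 of 40 combinations of gene and group held a library whose distance to the next was large against the range of its group, where chance gives about 1 in 20. Foxj1 stood at 10.5 CPM in VPA wildtype replicate 3, the highest of 8, with the next library at 6.57 CPM. That library is 1 of the 4 low in Th (98.0 CPM). Kl stood at 28.5 CPM in ACY957 mutant replicate 3, the highest of 8, with the next at 4.02 CPM. Ttr (430 CPM) and Folr1 (6.11 CPM) were also at their highest there.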

How the results depend on the processing

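No paired analysis was possible because each mouse number occurs once and the groups share none. Single changes of the 8 genes were recomputed only where the main edgeR fit gave an unadjusted p under 0.05, which held for 37 changes. Over all settings, most of which left out 1 library, these gave 1407 recomputed values. Of the 1407, 1369 kept their direction and side of the threshold, 25 newly passed, 10 no longer passed and 3 changed sign. Those 3 were VPA against vehicle in libraries labelled mutant: Foxj1 at -0.048 without the libraries low in Th, and Ccdc153 at -0.20 and Tmem212 at -0.36 with the dopamine neuron genes as a covariate. Between the labels under VPA, 2 of 8 genes passed, and 1 did with limma voom, without the libraries low in Th, with the dopamine covariate, without the 13 libraries at odds with their label in clock output, or with only the groups compared in the fit; leaving out 1 library gave 1 to 5. For the mean over treatments, 1 passed, against 2 with DESeq2 (Ccdc153 added, 2.67, adjusted p = 0.00335) and 4 without the 16 mutant-labelled vehicle libraries of mouse 48 and later (Ccdc153 3.27, Tmem212 2.32 and Rsph1 0.98 added); leaving out 1 library gave 1 to 2, Ccdc153 being added without VPA wildtype replicate 3 (2.95) or ACY957 wildtype replicate 1 (2.80). For VPA against vehicle in libraries labelled mutant 0 passed, against 1 with both vehicles pooled (Rsph1, 1.25) and 0 to 3 with 1 library left out; over both labels 0 passed, against 1 with vehicles pooled (Ccdc153, 2.94). Foxj1 passed between the labels under VPA with DESeq2 (0.97, adjusted p = 0.0387), where Rsph1 and Dnaic1 passed too. The cause of these shifts was not tested. Over all genes, the count between labels under VPA was 157, against 262 with DESeq2, 253 without the 16 vehicle libraries, 84 without the libraries low in Th, 73 with only the compared groups, 59 with the dopamine covariate and 51 to 504 with 1 library left out. For the mean over treatments it was 252, against 677 without the 13 libraries, 611 without the 16 and 126 to 325 with 1 left out. For VPA against vehicle in libraries labelled mutant it was 9, against 28 with DESeq2, 130 with vehicles pooled, 0 with limma voom, 20 with no filter and 3 to 269 with 1 left out. Over both labels, VPA against vehicle gave 11, 39 with DESeq2 and 450 with vehicles pooled, and ACY957 against vehicle 4, 26 and 232. ACY957 against vehicle in libraries labelled mutant gave 1, 6 with DESeq2 and 119 with vehicles pooled. The labels under ACY957 gave 0, 5 with DESeq2, 20 without the 16 libraries and 48 without the 13, and under the ACY957 vehicle 2, with 22 without the 16 and 51 without the 13. At 3 counts or fewer in 22 and 17 libraries, Ccdc153 and Tmem212 are limited by depth.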
